A study of Mus musculus with 9 samples.

Results

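Expression of the p53 pathway was examined for 10 genes, namely Trp53, which encodes p53, and 9 of its classical direct targets. The members were chosen by gene symbol: a probe set counted when the platform annotation gave it exactly 1 symbol and that symbol was on the list. This gave 8 of the 10 listed genes, out of 12393 genes in all, with 14 of the 22690 probe sets. Cdkn1a, Mdm2, Btg2 and Sesn2 each had 2 probe sets, Ccng1 had 3, and Gadd45a, Phlda3 and Zmat3 had 1. No probe set was taken for Trp53 or Bax under this rule, so the transcript of p53 itself and that of its target Bax are not analysed here.

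The arrays compared 3 mouse lines with 3 arrays each. SV5-NN4 is a stable clone of NIH 3T3 cells that expresses large T antigen from SV40, a polyomavirus, and in addition wild-type N-ras. SV5 is a stable clone of NIH 3T3 cells transformed by SV40 large T antigen, without the added N-ras. NIH 3T3, the embryo fibroblast line from which both clones derive, has a wild-type genotype in the labels and served as the control. All lines were grown in medium with calf serum and no DNA-damaging treatment is labelled. Each line stands for 1 clone or stock, so T antigen or N-ras and the choice of clone cannot be told apart. The labels do not state whether the 3 arrays of a line came from different cultures, and the spread behind the p-values may therefore be technical.

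p53 is a transcription factor that is held low by the ubiquitin ligase Mdm2 in unstressed cells and accumulates after DNA damage or oncogenic stress. It then raises transcription of genes for cell cycle arrest, repair and death, and of Mdm2, which closes a negative feedback loop. Large T antigen binds the DNA-binding domain of p53, which stabilises the protein and blocks its activity on target promoters. NIH 3T3 cells are known to lack the Cdkn2a locus, whose product Arf restrains Mdm2.

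The response element through which p53 binds these genes is a pair of decamers. Each decamer, the p53 half-site consensus, has purines, a C, a pair of A or T bases, a G and then pyrimidines, and it is its own reverse complement, so 1 strand covers both. RefSeq promoter windows of GRCm38.p6, which run from 250 bases before to 50 bases after a start, were found for 9 of the 10 genes, with 2 windows for Cdkn1a. An exact match lay in 6 of these 10 windows, those of Cdkn1a, Ccng1, Mdm2, Gadd45a, Trp53 and Bax, against 8.36% of all 32851 windows in the table. A pair of decamers separated by at most 13 bases, with at most 1 mismatch in all, lay in 2 of the 10 windows, those of Ccng1 and Cdkn1a, against 0.627% of all windows. The stretches that hold the matches are shown for the 4 genes with array values, 5′ to 3′ on the strand of the gene. Capitals mark exact decamers and both decamers of a pair. In Ccng1 and in the Cdkn1a pair with no gap, 1 decamer of the pair carries the mismatch. The Cdkn1a stretch lies at chr17:29090876-29090977 on the plus strand. The other 3 lie on the minus strand, Ccng1 at chr11:40755432-40755511, Mdm2 at chr10:117710905-117710974 and Gadd45a at chr6:67037408-67037477.
Cdkn1a: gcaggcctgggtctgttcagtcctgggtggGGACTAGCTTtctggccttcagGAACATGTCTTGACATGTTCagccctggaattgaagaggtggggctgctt
Ccng1: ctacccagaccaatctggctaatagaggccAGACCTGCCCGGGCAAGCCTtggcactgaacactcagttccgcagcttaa
Mdm2: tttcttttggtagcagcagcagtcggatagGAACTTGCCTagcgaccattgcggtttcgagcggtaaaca
Gadd45a: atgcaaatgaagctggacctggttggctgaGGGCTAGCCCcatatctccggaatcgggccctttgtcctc
In Cdkn1a the match lies in the upstream of the 2 windows, and its pair with no gap begins 51 bases before that start. The Mdm2 and Gadd45a stretches each hold 1 decamer and no pair. The genes were listed as p53 and its direct targets, so shares above those of all windows are not an independent result. These matches describe the letters of the windows. The arrays measured RNA and not binding, and a window with no match says nothing of elements outside it.

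Values are given as log2(intensity + 1), called the log2 level, and differences as log2 differences of the paired fit, in which arrays with equal replicate numbers were compared with each other. Replicate number accounted for 61.1% of the sum of squares over all probe sets and line for 21.8%. Bacterial control transcripts lay between log2 levels of 3.18 and 4.25, which was taken as the floor. A level above this floor does not by itself show that a transcript was present. The ratio of 3′ to 5′ signal of Actb, a sign of RNA integrity, was 4.12 ± 0.49 (log2, SD, n = 3) in SV5-NN4, 3.49 ± 0.98 in SV5 and 4.58 ± 0.43 in NIH 3T3. The same ratio of Gapdh was 3.08 ± 0.43, 2.61 ± 0.36 and 3.61 ± 1.39 in this order of lines. On the replicate 3 arrays the Gapdh ratio was 3.05 in SV5-NN4, 2.36 in SV5 and 5.21 in NIH 3T3. Mean ratios of both genes were thus highest in NIH 3T3 and lowest in SV5. Their part in the differences between lines and between probe sets of a gene was not tested. Of 14 fibroblast markers measured, 0 were at the floor on all 9 arrays and 12 had a mean level at or above the median probe set. Their summed intensity was 25664 to 39047 in SV5-NN4, 45488 to 64185 in SV5 and 31020 to 55656 in NIH 3T3, and 4 of them, Dcn, Pdgfra, Thy1 and Col3a1, fell in SV5-NN4 against SV5 (median of the list -0.61, with 1.05% of all genes called in either direction). In SV5-NN4 against NIH 3T3, 13 of the 14 lay below 0 with a median of -0.5, and 3 of them, Dcn, Thy1 and Pdgfra, fell, with 1.96% of all genes called. Of 8 endothelial, 8 leukocyte, 8 epithelial and 7 muscle markers measured, 0 were called in any comparison. In that order, 2, 0, 1 and 0 were at the floor on all 9 arrays. A mean level at or above the median probe set was found for 1, 4, 2 and 1. Cldn3, an epithelial marker, averaged 7.22, the endothelial Flt1 6.71 and the leukocyte Cd3e 6.65. The dimmer Mdm2 and Cdkn1a probe sets, Gadd45a, and the Btg2 and Sesn2 probe sets averaged less than these, so their detection is not settled. The part of the shifts in fibroblast markers in the results that follow was not tested.

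None of the 14 probe sets passed the test in any of the 3 comparisons, by limma with Benjamini-Hochberg adjustment over all probe sets at an adjusted p under 0.05. Against NIH 3T3, SV5 had 0 of 14 called, where 0.0617% of all probe sets were called. In SV5-NN4 against SV5, 0 of 14 were called, beside 0.864% of all, and in SV5-NN4 against NIH 3T3, 0 of 14, beside 1.65% of all. At an unadjusted p under 0.05 there were 2 of 14 in SV5 against NIH 3T3 (14.2% of all probe sets), 2 in SV5-NN4 against SV5 (13% of all) and 4 in SV5-NN4 against NIH 3T3 (17.1% of all). Neither the adjusted nor the unadjusted counts set the p53 targets apart from these shares of all probe sets. The transcript nearest to a call was Cdkn1a in SV5-NN4 against NIH 3T3.

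**Figure D1:**
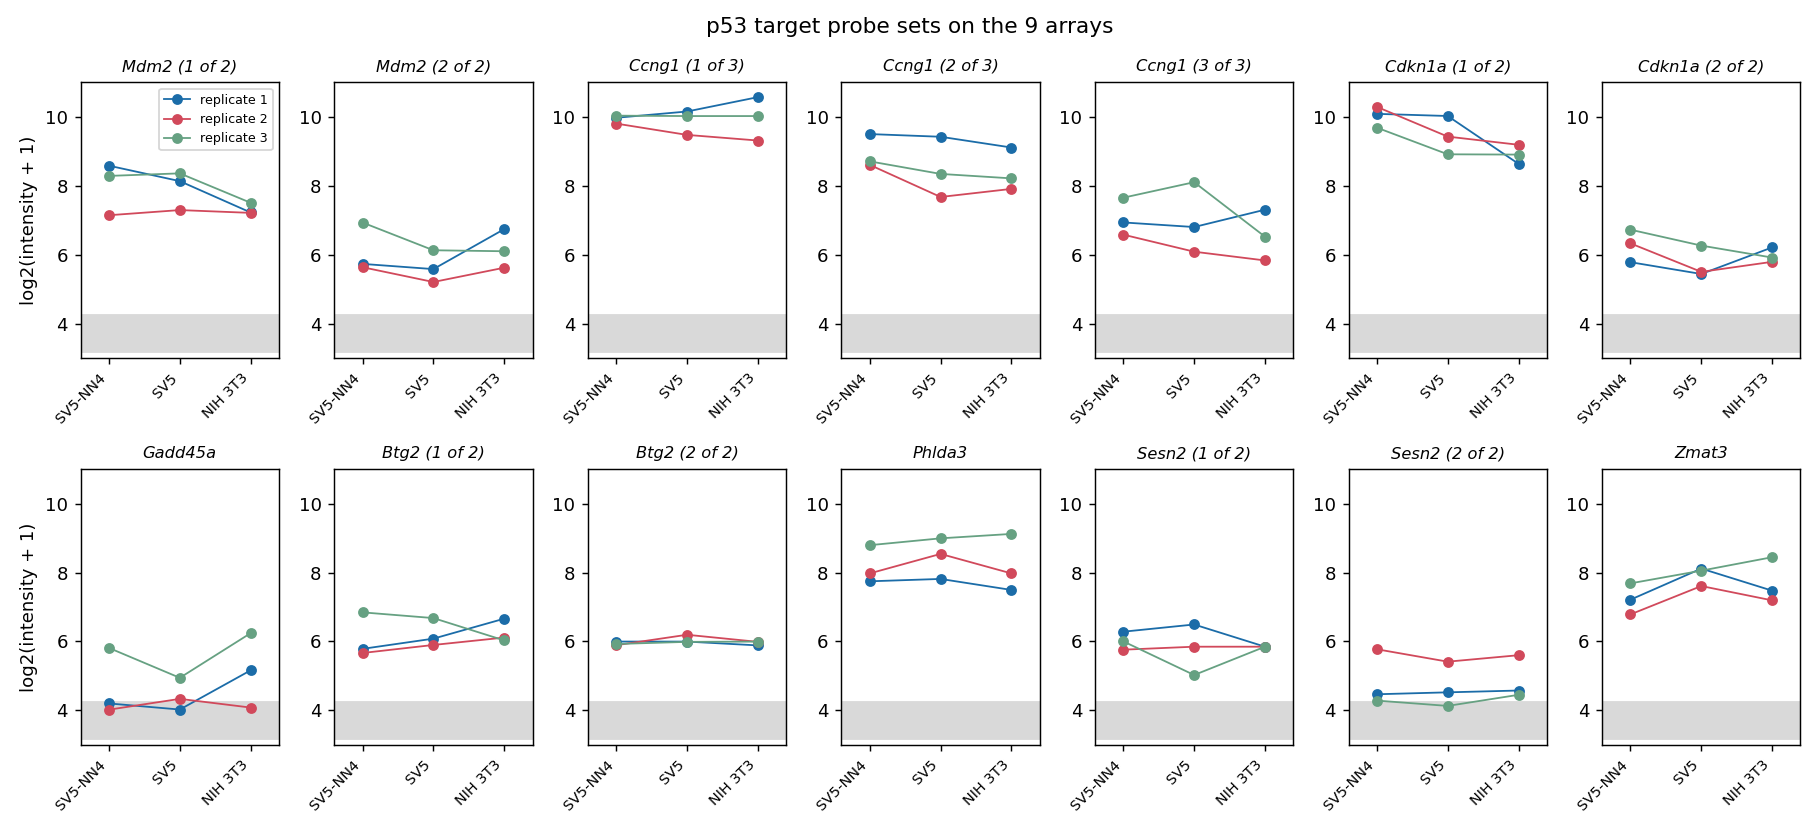
Log2 levels of the 14 probe sets (vertical axis, log2(intensity + 1)) in SV5-NN4, SV5 and NIH 3T3, with 1 point per array and lines joining arrays of equal replicate number; the grey band is the floor of 3.18 to 4.25 and numbers in brackets count a gene's probe sets from its brightest. Cdkn1a (1 of 2) is the only panel in which all SV5-NN4 arrays lie above all NIH 3T3 arrays, and Gadd45a and Sesn2 (2 of 2) are the panels with points in the floor band.

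Mdm2 and Ccng1 act on p53 itself. Mdm2 encodes the ligase that ubiquitinates p53, and its transcript is a standard readout of p53 activity. At its brightest probe set Mdm2 had log2 levels of 8.58, 7.15 and 8.29 in SV5-NN4, 8.13, 7.3 and 8.36 in SV5, and 7.23, 7.21 and 7.51 in NIH 3T3, in the order of replicates 1, 2 and 3. The replicate 2 arrays of all lines were alike, and the other arrays of the clones were higher than those of NIH 3T3, so the groups overlap through replicate 2. The difference was 0.61 in SV5 against NIH 3T3 (SE 0.25, 95% interval 0.03 to 1.2, limma adjusted p = 0.327) and 0.69 in SV5-NN4 against NIH 3T3 (SE 0.25, interval 0.1 to 1.28, adjusted p = 0.222). Between SV5-NN4 and SV5 it was 0.07 (interval -0.51 to 0.66).

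The other Mdm2 probe set did not give this pattern. It had log2 levels of 5.73, 5.64 and 6.93 in SV5-NN4, 5.58, 5.21 and 6.13 in SV5, and 6.74, 5.62 and 6.1 in NIH 3T3. Its differences were -0.52 in SV5 against NIH 3T3 and -0.05 in SV5-NN4 against NIH 3T3, opposite in sign to the brighter probe set. The probe sets thus give no settled direction for the gene against NIH 3T3. This probe set averaged 5.97 over the 9 arrays, below the markers of other cell types named above, so it may not report the transcript. Against SV5, SV5-NN4 differed at this probe set by 0.46, higher in 3 of 3 pairs (adjusted p = 0.669), with the same sign as the brighter probe set. With their mean taken per gene, Mdm2 differed by 0.05 in SV5 against NIH 3T3 and by 0.32 in SV5-NN4 against NIH 3T3.

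Ccng1 encodes cyclin G1, which recruits protein phosphatase 2A to Mdm2 and so takes part in the same feedback. Its promoter stretch shown above holds a pair of decamers with 1 mismatch. The brightest probe set had log2 levels of 9.97, 9.8 and 10.03 in SV5-NN4, 10.15, 9.48 and 10.02 in SV5, and 10.57, 9.31 and 10.02 in NIH 3T3. The line means were close, at 9.94, 9.88 and 9.97 in the same order. Single arrays were not, and the NIH 3T3 range of 9.31 to 10.57 covers all other arrays. Differences of this probe set were -0.08 in SV5 against NIH 3T3 (interval -0.55 to 0.38), 0.05 in SV5-NN4 against SV5 (interval -0.41 to 0.52) and -0.03 in SV5-NN4 against NIH 3T3 (interval -0.5 to 0.43).

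The second Ccng1 probe set had log2 levels of 9.5, 8.61 and 8.71 in SV5-NN4, 9.42, 7.68 and 8.34 in SV5, and 9.11, 7.91 and 8.22 in NIH 3T3. SV5-NN4 was higher in 3 of 3 pairs in both of its comparisons, which share the SV5-NN4 arrays, although the groups overlap. The share of all probe sets with 3 agreeing pairs was not determined. Here and for other genes, such agreement is therefore only a description. The difference was 0.46 against SV5 (SE 0.17, adjusted p = 0.309) and 0.53 against NIH 3T3 (SE 0.17, adjusted p = 0.18). The third probe set, at mean levels of 7.06 in SV5-NN4, 7 in SV5 and 6.55 in NIH 3T3, had differences of 0.06 to 0.5 over the 3 comparisons and the widest SE of the 14, 0.36.

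Cdkn1a, Gadd45a and Btg2 slow the cell cycle. Cdkn1a encodes p21, the inhibitor of cyclin-dependent kinases through which p53 arrests cells, and its promoter holds the classical element printed above. At its brightest probe set the log2 levels were 10.09, 10.29 and 9.69 in SV5-NN4, 10.02, 9.43 and 8.91 in SV5, and 8.64, 9.19 and 8.9 in NIH 3T3. All 3 SV5-NN4 arrays were above all 3 NIH 3T3 arrays, a separation found in 6.45% of all probe sets in either direction, while SV5 overlapped both. None of the 14 separated SV5-NN4 from SV5 (7.93% of all) or SV5 from NIH 3T3 (4.55% of all). Cdkn1a averaged 10.02 ± 0.31 in SV5-NN4, 9.45 ± 0.56 in SV5 and 8.91 ± 0.28 in NIH 3T3 (log2 level, SD, n = 3 each).

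Between SV5-NN4 and NIH 3T3 the Cdkn1a difference was 1.11, or 2.16-fold (SE 0.25, interval 0.52 to 1.7), and it did not pass the test (limma adjusted p = 0.085). The pairs gave 1.45, 1.1 and 0.78. It was the only one of the 14 probe sets that reached 2-fold in a comparison, a size reached by 2.84% of all probe sets here, by 2.43% in SV5-NN4 against SV5 and by 1.45% in SV5 against NIH 3T3. Between SV5-NN4 and SV5 the difference was 0.57 (interval -0.03 to 1.16, adjusted p = 0.411), and between SV5 and NIH 3T3 it was 0.54 (interval -0.05 to 1.14, adjusted p = 0.385). In SV5 against NIH 3T3 the pairs gave 1.39, 0.24 and 0.01, so replicate 1 held most of it. With 1 array left out at a time, the SV5-NN4 to NIH 3T3 difference was 0.81 to 1.33, with adjusted p from 0.0542 to 0.311.

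The dimmer Cdkn1a probe set had log2 levels of 5.78, 6.33 and 6.73 in SV5-NN4, 5.44, 5.5 and 6.27 in SV5, and 6.21, 5.79 and 5.92 in NIH 3T3. Its differences were 0.54 in SV5-NN4 against SV5, higher in 3 of 3 pairs, 0.3 in SV5-NN4 against NIH 3T3 and -0.24 in SV5 against NIH 3T3. The 2 probe sets thus had the same sign in both SV5-NN4 comparisons and opposite signs in SV5 against NIH 3T3. With the mean of both taken per gene, Cdkn1a passed the test in SV5-NN4 against NIH 3T3, at a difference of 0.71 and an adjusted p of 0.0485 over all genes in limma. That setting called 2.52% of all genes in this comparison. At the brightest probe set without the replicate block, the adjusted p was 0.604.

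Gadd45a encodes a stress protein that binds PCNA and activates the p38 and JNK kinase pathways. Its probe set had log2 levels of 4.2, 4.02 and 5.81 in SV5-NN4, 4.03, 4.34 and 4.95 in SV5, and 5.16, 4.08 and 6.24 in NIH 3T3. It was at or below the floor on 4 of 9 arrays, so differences among those arrays have no order. The difference was -0.73 in SV5 against NIH 3T3 (interval -1.43 to -0.02, adjusted p = 0.336) and -0.48 in SV5-NN4 against NIH 3T3 (interval -1.19 to 0.22). Between SV5-NN4 and SV5 it was 0.24 (interval -0.46 to 0.95).

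Btg2 encodes an antiproliferative protein that binds the CCR4-NOT deadenylase. Its brighter probe set had log2 levels of 5.79, 5.67 and 6.84 in SV5-NN4, 6.08, 5.9 and 6.68 in SV5, and 6.66, 6.11 and 6.03 in NIH 3T3, and the lines overlapped throughout. Differences were -0.17 to -0.05 over the 3 comparisons, with adjusted p of 0.82 to 0.966. The other Btg2 probe set stayed between 5.89 and 6.2 on all 9 arrays, with an SE of 0.12. Some of its deposited values were identical between arrays, so this narrow spread may not measure its error.

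Phlda3, Sesn2 and Zmat3 connect p53 to growth signalling and RNA. Phlda3 encodes a membrane lipid-binding protein that holds back Akt. Its log2 levels were 7.75, 7.97 and 8.79 in SV5-NN4, 7.81, 8.54 and 8.99 in SV5, and 7.5, 7.97 and 9.12 in NIH 3T3. The order of the replicate numbers was the same in every line, and 88.6% of the sum of squares lay between replicate numbers, against 4.96% between lines. Differences were 0.25 in SV5 against NIH 3T3 (interval -0.14 to 0.65), -0.28 in SV5-NN4 against SV5 (interval -0.67 to 0.12) and -0.03 in SV5-NN4 against NIH 3T3 (interval -0.42 to 0.37).

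Sesn2 encodes sestrin 2, a leucine-binding protein that restrains mTORC1. Its brighter probe set had log2 levels of 6.28, 5.76 and 6 in SV5-NN4, 6.49, 5.85 and 5.03 in SV5, and 5.85 on all 3 NIH 3T3 arrays. The deposited value was identical on those 3 arrays and SV5 replicate 2, and 6816 of the 22690 probe sets carried a value repeated between arrays, so the spread of 0 in NIH 3T3 is not a measure of its error. The fit pools the spread of the lines and gave differences of -0.06 to 0.23, with an SE of 0.27. The other Sesn2 probe set followed replicate number almost entirely, with 96% of its sum of squares there, and differed by -0.19 to 0.15 between lines. Values identical on 2 arrays also occurred for the brightest Ccng1 probe set, Phlda3 and the second Btg2 probe set.

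Zmat3 encodes a zinc finger protein that binds RNA. Its log2 levels were 7.21, 6.79 and 7.69 in SV5-NN4, 8.11, 7.61 and 8.05 in SV5, and 7.47, 7.19 and 8.44 in NIH 3T3. SV5-NN4 was lower than SV5 in 3 of 3 pairs, by 0.9, 0.82 and 0.37, although SV5-NN4 replicate 3 exceeded SV5 replicate 2. The difference was -0.7 (SE 0.2, interval -1.16 to -0.24, adjusted p = 0.17), the lowest of the 14 in this comparison. With only these lines fitted, its adjusted p was 0.0392, in a setting that called 1504 of all 22690 probe sets, so that 1 call among the 14 is close to the background. Without the replicate block its adjusted p was 1. Against NIH 3T3 the difference was -0.48 in SV5-NN4 (interval -0.94 to -0.02, adjusted p = 0.279) and 0.22 in SV5 (interval -0.24 to 0.68).

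**Figure D2:**
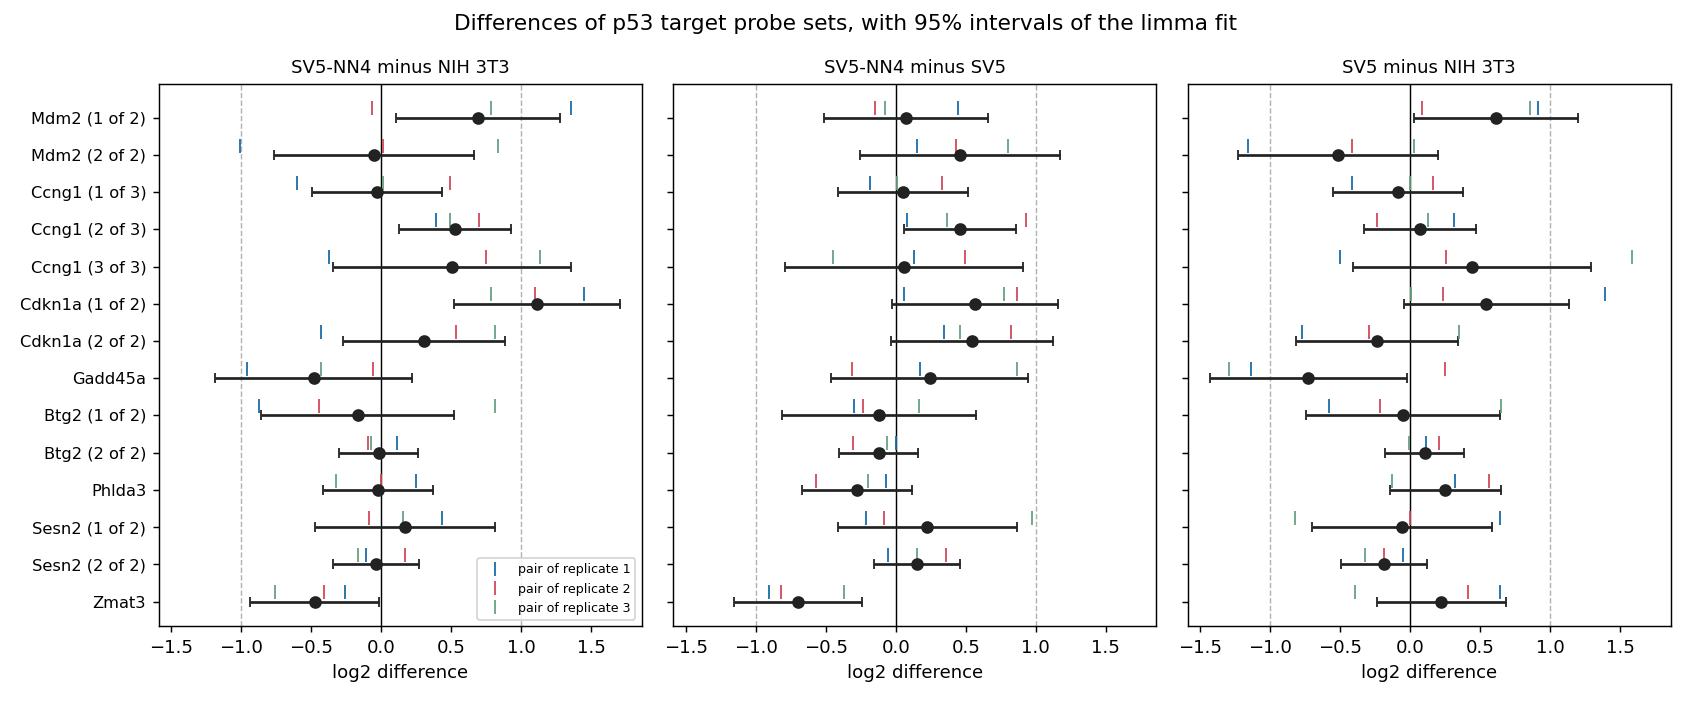
Log2 differences (horizontal axis) of the 14 probe sets in the 3 comparisons; points are the paired limma fit, bars its 95% intervals, coloured ticks the 3 pairs of arrays, and dashed lines mark 2-fold. Cdkn1a (1 of 2) stands at 1.11 in SV5-NN4 minus NIH 3T3, Zmat3 at -0.7 in SV5-NN4 minus SV5, and the 2 Mdm2 probe sets lie on opposite sides of 0 in SV5 minus NIH 3T3.

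As a group the p53 targets had no shared direction. In SV5 against NIH 3T3, 7 of the 14 probe sets lay above 0 and 7 below, with a median of 0.01, beside a median of -0.04 and 43.7% above 0 over all probe sets. In SV5-NN4 against SV5, 10 lay above 0 and 4 below, with a median of 0.11, beside 0.01 and 51.9% over all. In SV5-NN4 against NIH 3T3, 6 lay above 0 and 8 below, with a median of -0.02, beside -0.03 and 44.9% over all. Probe sets of a gene share its transcript, so the 14 are not independent. At the brightest probe set of each of the 8 genes, the medians were 0.09, 0.06 and -0.03 in the same order of comparisons.

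The intervals show how large a difference in signal could have been missed. Where detection is not settled, they do not limit a change of the transcript. This holds for the dimmer Mdm2 and Cdkn1a probe sets and for those of Btg2 and Sesn2. Such intervals are among those counted here. For SV5 against NIH 3T3, 9 of the 14 intervals lay wholly within 2-fold in either direction, beside 85.2% of the intervals of all probe sets, and the highest bound was 1.29 for the third Ccng1 probe set. In SV5-NN4 against SV5, 10 lay within 2-fold, beside 85.4% of all, and the bounds ran from -1.16 for Zmat3 to 1.17 for the dimmer Mdm2 probe set. In SV5-NN4 against NIH 3T3, 10 lay within 2-fold, beside 83% of all, and the highest bound was 1.7 for Cdkn1a. Gadd45a had the lowest fitted interval ends in both comparisons with NIH 3T3, but these do not limit its change, since 4 of its 9 arrays were at or below the floor. The median SE of the 14 was 0.25, above the 0.16 over all probe sets. That comparison is not matched for level, as 11 of the 14 lay at or above the median level.

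The probe sets also differed in where their variation lay. Cdkn1a at its brightest probe set had 65.8% of its sum of squares between lines and 14% between replicate numbers, the highest line share of the 14. Zmat3 had 34.9% between lines and the brightest Mdm2 probe set 31.9%, below their shares of 51.6% and 47.5% between replicate numbers. For Phlda3, Gadd45a and all 3 Ccng1 probe sets, replicate number held 58.5% to 88.6%. The second Btg2 probe set had 38.8% between lines, but its log2 levels span less than any other of the 14.

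**Figure D3:**
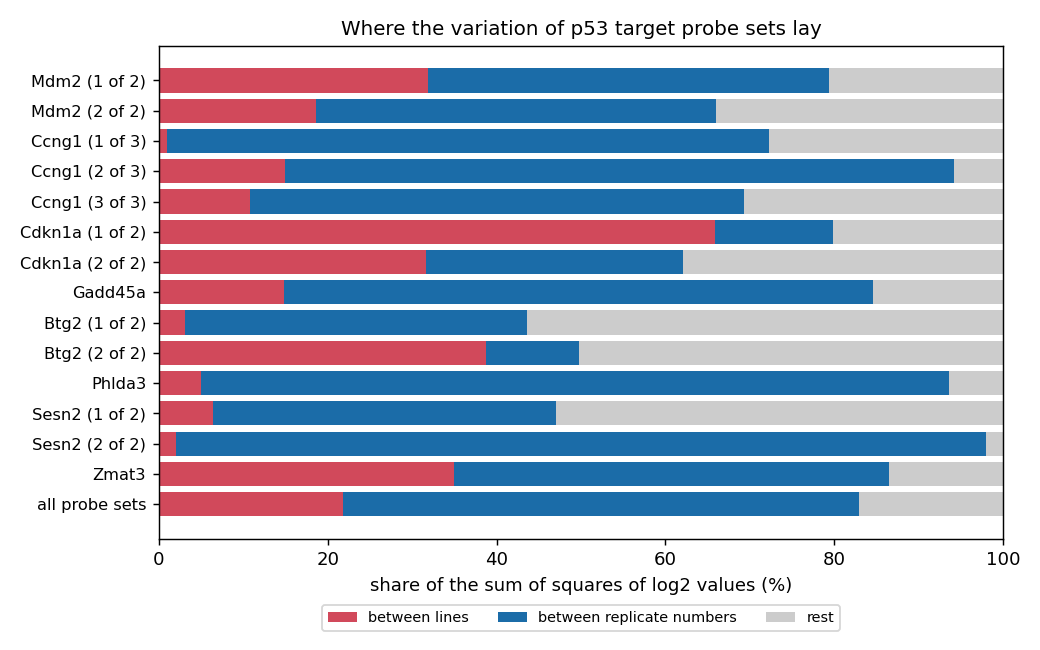
Share of the sum of squares of log2 levels over the 9 arrays (horizontal axis, percent) that lay between lines, between replicate numbers and in the rest, for the 14 probe sets and summed over all probe sets. Cdkn1a (1 of 2) has the highest line share at 65.8%. Replicate number leads over all probe sets and in the Mdm2, Ccng1, Gadd45a, Phlda3, Sesn2 (2 of 2) and Zmat3 probe sets, with its highest share, 96%, in Sesn2 (2 of 2).

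The wider pathway was described by lists, in which a gene stood at its brightest probe set. Of 23 measured p53 targets of arrest, repair and feedback outside the 10 genes, 0 were called in any comparison. In SV5 against NIH 3T3, 13 lay above 0 with a median of 0.06, beside -0.03 over all 12393 genes, and the background of calls was 0.0484%. In SV5-NN4 against SV5, 14 lay above 0 with a median of 0.07, beside 0.01 over all genes and 1.05% called. In SV5-NN4 against NIH 3T3, 14 lay above 0 with a median of 0.19, beside -0.03 over all genes and 1.96% called. Pcna, the sliding clamp of DNA replication, differed by 1.44 in SV5-NN4 against NIH 3T3 (SE 0.43, adjusted p = 0.148), and Ckap2, a spindle protein, by 1.13 (adjusted p = 0.0798). Ppm1d, the Wip1 phosphatase that dampens p53, averaged 6.78 in SV5-NN4, 6.43 in SV5 and 6.62 in NIH 3T3.

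Of 25 measured p53 targets of cell death, metabolism and signalling, 0 were called in any comparison. The medians were 0.07 in SV5 against NIH 3T3, with 15 above 0, -0.1 in SV5-NN4 against SV5, with 7 above 0, and 0.04 in SV5-NN4 against NIH 3T3, with 14 above 0. Over all genes the medians were -0.03, 0.01 and -0.03 in the same order, and 0.0484%, 1.05% and 1.96% were called. The count of 0 is near these shares. Trp53inp1, a p53-induced protein of autophagy and cell death, differed by -1.04 in SV5-NN4 against SV5 (SE 0.2, adjusted p = 0.0709, lower in 3 of 3 pairs). Ephx1, an epoxide hydrolase, differed by 1.11 in SV5 against NIH 3T3 (SE 0.21, adjusted p = 0.125, higher in 3 of 3 pairs). Dram1, a lysosomal protein of autophagy, differed by -0.79 in SV5-NN4 against NIH 3T3 (SE 0.17, adjusted p = 0.0739, lower in 3 of 3 pairs). The lowest adjusted p of this list was 0.0534, in SV5-NN4 against NIH 3T3.

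Of 21 measured genes that act on p53, 1 was called, with medians of 0.04 in SV5 against NIH 3T3, -0.12 in SV5-NN4 against SV5 and 0.08 in SV5-NN4 against NIH 3T3, beside -0.03, 0.01 and -0.03 over all genes. The call was in SV5-NN4 against SV5, where 1.05% of all genes were called and 0.371% were called higher. Chek2, the checkpoint kinase that phosphorylates p53 after double-strand breaks, rose in SV5-NN4 against SV5 by 1.34 (SE 0.16, adjusted p = 0.0217). Its log2 levels were 8, 8.69 and 8.04 in SV5-NN4, 6.63, 7.19 and 6.88 in SV5, and 7.54, 7.9 and 7.06 in NIH 3T3, and no SV5-NN4 array overlapped with SV5. With single arrays left out, the difference was 1.26 to 1.49 with adjusted p from 0.00693 to 0.185, and in the fit without the replicate block its adjusted p was 0.312. Against NIH 3T3 the Chek2 difference was 0.74 in SV5-NN4 (adjusted p = 0.0759) and -0.6 in SV5 (adjusted p = 0.182). Chek1, the kinase that acts at stalled forks, differed by 1.2 in SV5-NN4 against NIH 3T3 (SE 0.43, adjusted p = 0.217, higher in 2 of 3 pairs). In SV5-NN4 against SV5 its difference, added after the values were seen, was 1.31 (SE 0.43, adjusted p = 0.239, higher in 3 of 3 pairs).

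The other regulators named here were dim and were not called. Mdm4, the Mdm2 relative that masks the activation domain of p53, averaged 4.98 in SV5-NN4, 4.99 in SV5 and 5.01 in NIH 3T3. Cdkn2a, known to be deleted in NIH 3T3, averaged 4.17, 4.31 and 4.31 in the same order, near the top of the floor, with differences of -0.14 to 0.01. Of the p53 family, Trp63 averaged 4.29, 4.2 and 4.36, also near the floor, and Trp73 averaged 5.62, 5.61 and 5.91.

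p53 also lowers many cell cycle genes indirectly, through p21 and DREAM, a complex of retinoblastoma-family proteins with E2F and MuvB that silences those genes in resting cells. Of 29 such genes measured, all lay above 0 in SV5-NN4 against SV5, with a median of 1.02, and in SV5-NN4 against NIH 3T3, with a median of 1. Over all genes, 52.2% and 44.9% lay above 0, with medians of 0.01 and -0.03. This direction is that of the fitted differences, and single pairs could go the other way. In replicate 1, for example, Ect2 was 9.4 in SV5-NN4 and 10.25 in NIH 3T3, and Ccne2 was 5.03 and 6.96. The genes were listed for control by the same complex, so the 29 are not independent. Both SV5-NN4 comparisons also use the same SV5-NN4 arrays. Between SV5 and NIH 3T3, 17 lay above 0 and the median was 0.09, beside 44.8% and -0.03 over all genes. The paired fit called 1 of them higher against SV5, where 0.371% of all genes were called higher, and 8 higher against NIH 3T3, where 1.27% were, and 0 in SV5 against NIH 3T3. The mitotic kinase Aurka rose by 1.39 against SV5 (adjusted p = 0.0141) and by 1.48 against NIH 3T3 (adjusted p = 0.0112). Against NIH 3T3 the ubiquitin-conjugating enzyme Ube2c rose by 1.79, topoisomerase Top2a by 1.54 and the replication licensing factor Mcm3 by 1.52. The counts rested on the fit and on single arrays: without the replicate block both were 0, and with 1 array left out they ran from 0 to 21 in each SV5-NN4 comparison, the highest without NIH 3T3 replicate 1. The count against NIH 3T3 was 0 without NIH 3T3 replicate 2, for example, and that against SV5 was 0 without SV5 replicate 1. With only the lines compared, 22 were called against SV5 and 0 against NIH 3T3, and with probe sets averaged per gene, 5 and 13.

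**Figure D4:**
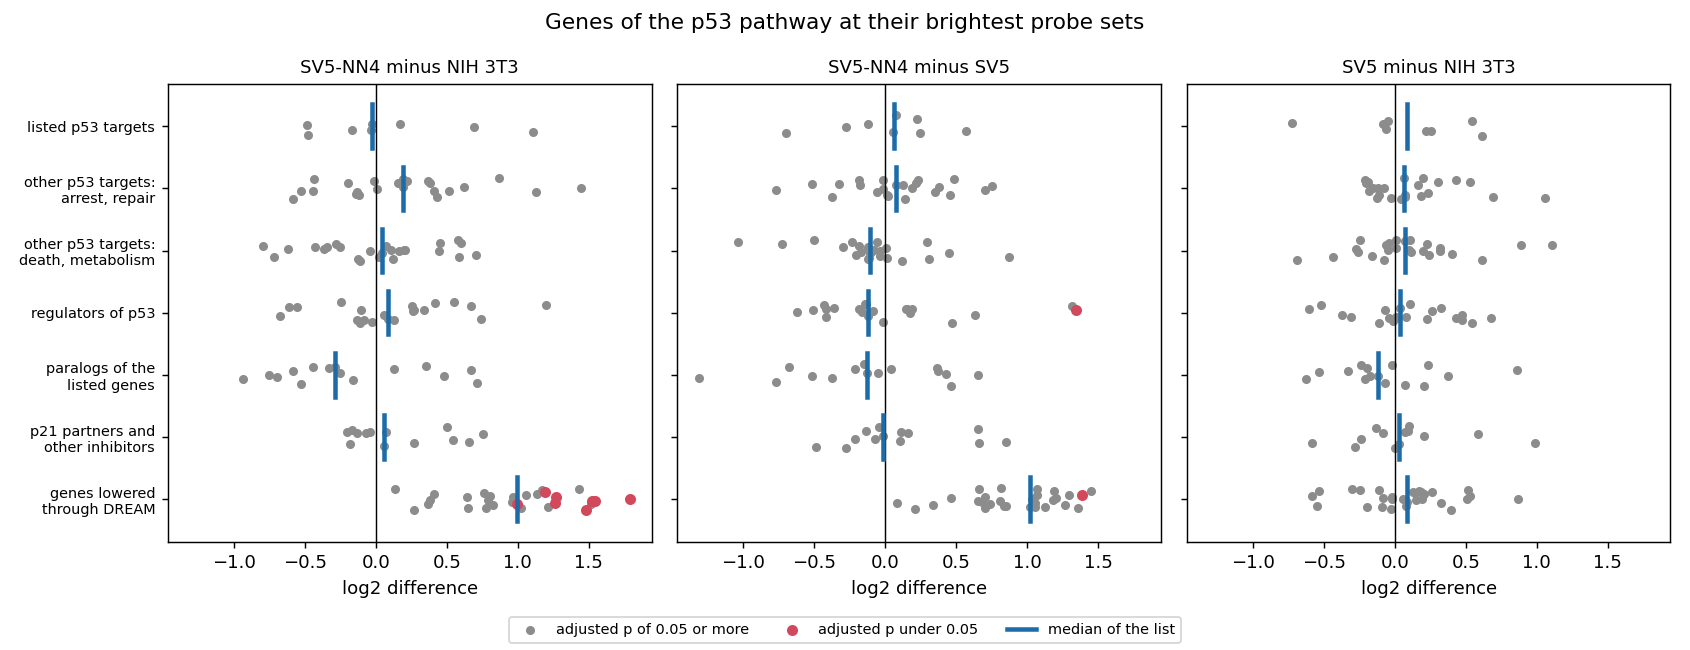
Log2 differences (horizontal axis) of genes at their brightest probe sets in 7 lists of the p53 pathway, for the 3 comparisons; red points were called at an adjusted p under 0.05 and blue bars are list medians. The listed p53 targets centre near 0, with medians of -0.03, 0.06 and 0.09 from left to right, while the DREAM genes lie at medians of 1 and 1.02 in the SV5-NN4 comparisons and 0.09 in SV5 minus NIH 3T3.

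The genes whose pattern was most like that of Cdkn1a were found among 7141 other genes at or above the median level, by Pearson correlation over the 9 arrays after the mean of each replicate number was subtracted. They were Hoxd9, a homeobox transcription factor, with r of 0.984, Icmt, the methyltransferase that completes the processing of Ras and other prenylated proteins, with r of 0.975, and Hagh, a glyoxalase of methylglyoxal detoxification, with r of 0.975. Among the other 13 p53 target probe sets, the second Ccng1 probe set was nearest at 0.825 and the brightest Mdm2 probe set next at 0.655, while Gadd45a lay at -0.483 and the other Cdkn1a probe set at 0.12. The 9 points share lines and arrays, and the highest of so many values is high by selection, so these are descriptions.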

How the data were processed

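RNA of 3 mouse lines was measured on 9 Affymetrix arrays. The authors deposited intensities on a linear scale for 22690 probe sets, and RMA is named in the submitters' processing notes without version or settings. Array number, 3 per line, limits the precision. Symbols came from the platform annotation, which gave exactly 1 symbol to 20393 probe sets. Each intensity was increased by 1 and taken to log2, which slightly understates differences of dim probe sets. Differences were fitted with limma 3.58.1 in R 4.3.3 (lmFit, eBayes) on all 9 arrays with a mean for each line and a block for each replicate number (the paired fit), and adjusted by Benjamini-Hochberg over all probe sets. The replicate numbers come from the sample titles, and the rule that defined the genes pairs equal numbers. The labels do not say what arrays of equal number share. As a check, line means were subtracted, and all 9 equal-numbered pairs of arrays correlated above 0.1 (r from 0.261 to 0.845). Other pairs had r from -0.726 to 0.114. The script was tested on simulated data. The members and lists were chosen with earlier results of these data known. Genes were named by a fixed rule: all members, and per list and comparison up to 4 called genes or up to 2 with the largest differences, plus a few regulators. Alternatives were the fit without the block, only the lines compared, a pseudocount of 16, the brighter probe sets, centring, quantile normalization, an intensity trend, gene means and leaving out each array.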

Additional observations from a re-analysis of the deposited data

How the results depend on the processing

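The count of called p53 target probe sets was 0 in all 3 comparisons in the fit with the replicate block and stayed 0 without any single array. It became 1 in SV5-NN4 against SV5 with only those lines fitted (Zmat3) and 1 in SV5-NN4 against NIH 3T3 with probe sets averaged per gene (Cdkn1a), and was 0 in the other settings tried. The fit with no replicate block called 1, 19 and 18 of all probe sets in SV5 against NIH 3T3, SV5-NN4 against SV5 and SV5-NN4 against NIH 3T3, where the block gave 14, 196 and 375. With only the lines compared the counts were 0, 1504 and 18. In SV5 against NIH 3T3 the count was 0 with a pseudocount of 16, after centring and after quantile normalization, and 6 with an intensity trend. With 1 array left out the counts ran from 0 to 49, from 14 to 950 and from 13 to 1239; the highest were without NIH 3T3 replicate 1. Of 186 differences of the 8 genes recomputed in 8 other settings, 180 kept their sign and call, and 4 changed sign, all of them uncalled. These were Sesn2 at 0.023 in SV5 against NIH 3T3 after quantile normalization, and with gene means Ccng1 at 0.14 and Btg2 at 0.027 in the same comparison and Ccng1 at 0.33 in SV5-NN4 against NIH 3T3. With 1 array left out, 21 of 216 changed sign and 0 became called. In SV5 against NIH 3T3 the differences ran from -0.28 to 0.14 for Ccng1, from -0.47 to 0.26 for Btg2 and from -0.34 to 0.32 for Sesn2. In SV5-NN4 against SV5 they ran from -0.19 to 0.32 for Mdm2, from -0.15 to 0.25 for Ccng1, from -0.054 to 0.63 for Gadd45a, from -0.44 to 0.099 for Btg2 and from -0.15 to 0.51 for Sesn2. In SV5-NN4 against NIH 3T3 they ran from -0.23 to 0.19 for Ccng1, from -0.59 to 0.14 for Btg2, from -0.15 to 0.14 for Phlda3 and from -0.075 to 0.36 for Sesn2. The count of DREAM genes called higher in SV5-NN4 ran from 1 to 22 against SV5 and from 0 to 13 against NIH 3T3 over the settings that kept the block and all arrays. The cause was not tested. No probe set here had counts or a depth, and levels at the floor limit Gadd45a.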

Other observations

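Paralogs of the 10 genes, from the Gadd45, sestrin, Btg, cyclin G, Phlda, Zmat and Bcl2 families and some of them p53 targets too, were described as a list of 15 measured genes at their brightest probe sets, and 0 were called in any comparison. Medians were -0.12 in SV5 against NIH 3T3, with 5 above 0, -0.13 in SV5-NN4 against SV5, with 6 above 0, and -0.29 in SV5-NN4 against NIH 3T3, with 5 above 0. Over all genes the medians were -0.03, 0.01 and -0.03 in the same order, and 0.0484%, 1.05% and 1.96% were called. The count of 0 is near these shares. Sesn3, a sestrin that FoxO factors induce, differed by -1.31 in SV5-NN4 against SV5 (SE 0.33, limma adjusted p = 0.129, lower in 3 of 3 pairs). Gadd45b, a relative of Gadd45a, averaged 7.35 in SV5-NN4 and 8.1 in NIH 3T3, a difference of -0.76 (adjusted p = 0.193).

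The cyclins and kinases that p21 binds, with the other kinase inhibitors, made a list of 13 measured genes, of which 0 were called. Medians were 0.03, -0.02 and 0.05 in SV5 against NIH 3T3, SV5-NN4 against SV5 and SV5-NN4 against NIH 3T3. Over all genes they were -0.03, 0.01 and -0.03, and 0.0484%, 1.05% and 1.96% were called, so the count of 0 is near these shares. Ccnd3, which encodes the G1 cyclin D3, averaged 8.7 in SV5 and 7.71 in NIH 3T3, a difference of 0.99 (SE 0.18, adjusted p = 0.116, higher in 3 of 3 pairs). Ccne1, which encodes cyclin E1, averaged 7.15 in SV5-NN4 and 6.4 in NIH 3T3, a difference of 0.75 (SE 0.21, adjusted p = 0.137).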
